A study of Mus musculus with 84 samples.

Results

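The genes described are 8 transcripts of the glucocorticoid response in sorted mouse microglia: the receptor gene Nr3c1 and Fkbp5, Tsc22d3, Sgk1, Ddit4, Klf9, Dusp1 and Zbtb16. They were chosen by name, and all 8 were found among the 49671 gene identifiers of the count files. The data are bulk RNA sequencing counts of 84 libraries of microglia, the macrophages that reside in the brain, which were purified by cell sorting after severe traumatic brain injury. Per the series' design text, peripheral monocytes were depleted with liposomes that carried clodronate, a bisphosphonate that kills phagocytes which take it up.

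Each of 5 days after injury (1, 7, 14, 30 and 60) held 4 treatments. Injured mice given clodronate liposomes gave 6, 5, 5, 4 and 4 libraries on those days, and injured mice given vehicle liposomes gave 4, 4, 5, 4 and 4. Injury without liposomes, called injury only here, gave 5, 5, 3, 4 and 3 libraries, and uninjured controls gave 5, 4, 3, 4 and 3. The labels call the controls sham in their titles and naive in their library names, so whether they had surgery or anaesthesia is not known. For strain, sex, age, liposome dose and sort gates, the sources used here give nothing. The year in the library names also differed. Day 1 held liposome libraries of a later year (3 clodronate, 2 vehicle) and of an earlier year (3 clodronate, 2 vehicle), and its other libraries and those of days 7 and 30 were of that earlier year. At day 14 the liposome libraries and the others carried different years, so vehicle was not compared with injury only there, and day 60 carried 1 year throughout.

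Glucocorticoids are adrenal steroid hormones that rise under stress and injury. They bind the glucocorticoid receptor, the product of Nr3c1, which is held in the cytosol by heat shock protein 90 and its co-chaperones. With hormone bound, the receptor enters the nucleus, where it binds palindromic DNA elements and raises genes that dampen inflammation, stop growth or feed back on the receptor, and it lowers many cytokine genes. Microglia express the receptor and respond to these hormones. Several of the same genes also answer other signals: Dusp1 is an immediate early gene, and Ddit4 is induced by hypoxia and amino acid stress.

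Because a receptor element close to a start site bears on such genes, 250 bases upstream of annotated starts were searched. RefSeq sequences of build GRCm38.p6 gave 13 windows for 6 of the 8 genes (Fkbp5, Tsc22d3, Sgk1, Ddit4, Klf9 and Dusp1). Nr3c1 and Zbtb16 had no entry. On both strands, 3 motifs were searched. The single receptor element was AGAACA, which reads as its reverse complement (TGTTCT) on the other strand. The palindromic glucocorticoid response element was that motif and, 3 bases on, its reverse complement, so every palindrome also holds the single element. The cAMP response element was TGACGTCA. The palindrome stood in 3 of 32851 windows of all genes (0.00913%), and 1 of these was a window of Sgk1 (chr10:21993640-21993889, plus strand). It lay 189 to 175 bases before the start and is shown whole, with the palindrome and a further single element in capitals.
Sgk1: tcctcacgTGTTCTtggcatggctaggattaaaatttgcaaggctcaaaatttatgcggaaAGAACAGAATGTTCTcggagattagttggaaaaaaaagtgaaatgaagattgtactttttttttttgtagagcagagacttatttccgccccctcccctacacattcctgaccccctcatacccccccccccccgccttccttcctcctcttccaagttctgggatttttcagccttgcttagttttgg

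The single element stood in 16.1% of all windows, in 3 of the Sgk1 windows, and in the Tsc22d3 window (minus strand), 185 to 180 bases before the start. The cAMP response element stood in 1.55% of all windows and in the window of Dusp1 (minus strand), 143 to 136 bases before the start. Both are shown as stretches of 30 bases, from chrX:140600690-140600719 and chr17:26508597-26508626, with the motif in capitals.
Tsc22d3: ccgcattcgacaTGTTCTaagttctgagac
Dusp1: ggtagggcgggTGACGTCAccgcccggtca
The windows of Fkbp5, Klf9 and Ddit4 held none of the 3 motifs. A match describes the letters of a window, not a site in use, and elements farther from a start were not searched.

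Depth ranged from 1109856 to 18654785 gene counts per library, with a median of 13060878. The libraries held microglial RNA: summed CPM (read counts scaled to library size, normalised within a day) of 10 microglial markers ranged from 4268 to 48060 with a median of 36185. Several libraries stood apart. Vehicle library 4 of day 7 held 1134078 counts with 54.62% of reads uniquely aligned. Uninjured library 3 of day 14 had the lowest microglial sum, 4268 CPM, beside 7500 CPM of 10 monocyte markers and 7993 CPM of 8 neutrophil markers. Uninjured library 1 of that day held the injury-associated gene Spp1 at 12.61 log2 CPM, against 4.63 and 2.64 in the other uninjured libraries and 11.0 to 12.49 after injury only. Clodronate library 1 of day 14 held Spp1 at 2.46 log2 CPM, against 11.68 to 12.38 in the other clodronate libraries, and vehicle library 1 held 11.98, against 8.45 to 10.97 in the other vehicle libraries. Labels were kept as given, and for some of the 8 genes day 14 results are given with and without the libraries of that day among these. The labels do not say that libraries came from separate mice, so p-values measure the spread between libraries.

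The 8 genes spanned several orders of magnitude in level. Per kilobase of exon, Dusp1, a phosphatase that switches off MAP kinases, averaged 2498 CPM over the 84 libraries. Sgk1, a kinase that regulates ion transport, averaged 455.2 CPM per kilobase, and Tsc22d3, or GILZ, a leucine zipper protein that binds inflammatory transcription factors, averaged 159.8. The receptor gene Nr3c1 followed at 20.6 CPM per kilobase, and Fkbp5, a co-chaperone that lowers the receptor's affinity for hormone, at 5.67. Klf9, a Krüppel-like transcription factor, averaged 1.27 CPM per kilobase, Ddit4, or REDD1, an inhibitor of mTORC1, 1.01, and Zbtb16, or PLZF, a zinc finger repressor, 0.144. Median read counts per library were 107134.5 for Dusp1 and 2024.5 for Nr3c1, but 53.5 for Klf9, 12.5 for Ddit4 and 4.5 for Zbtb16, so values of the last genes rest on few reads.

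**Figure D1:**
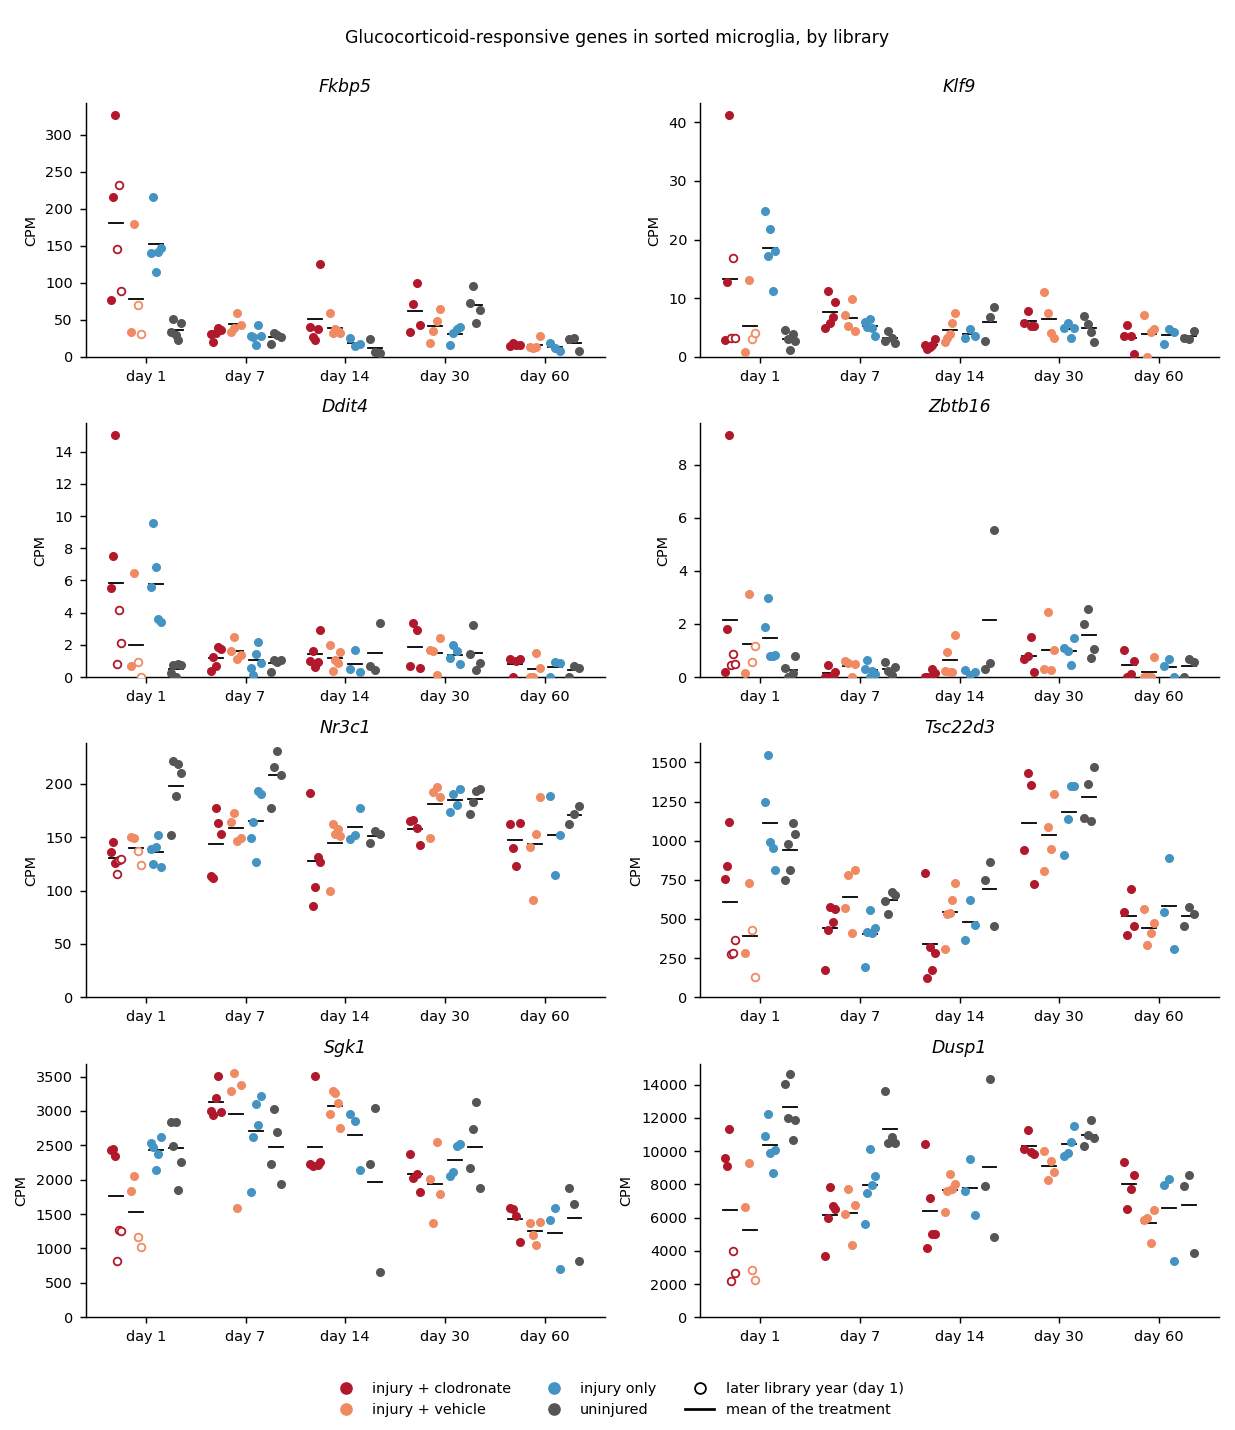
CPM of each gene (y axis, linear, from 0) in every library, by day and treatment (x axis, clodronate, vehicle, injury only and uninjured from left to right within a day). Points are libraries, open points are of the later library year at day 1, and bars are treatment means. Fkbp5, Ddit4, Klf9 and Zbtb16 had their highest library at day 1, at 326, 15.01, 41.2 and 9.10 CPM, whereas Nr3c1 stayed between 85.4 and 231 CPM in all libraries.

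Group means differed most for the genes of low level, over the 22 groups of treatment, day and library year. Mean CPM of the highest group over that of the lowest was 41.0 for Zbtb16, 22.7 for Ddit4 and 17.5 for Fkbp5, which averaged 206 CPM in clodronate libraries of day 1 of the earlier year and 11.8 CPM in uninjured libraries of day 14. The ratio was 9.25 for Klf9, 4.94 for Dusp1, 4.54 for Tsc22d3, 2.84 for Sgk1 and 1.67 for Nr3c1. Clodronate libraries of day 1 of the earlier year had the highest mean of Fkbp5, Ddit4, Klf9 and Zbtb16. Vehicle libraries of day 1 of the later year had the lowest mean of Dusp1 (2557 CPM), Tsc22d3 (281 CPM) and Sgk1 (1100 CPM). When the 22 groups were ordered by mean, neighbours overlapped in every one of 21 pairs for 7 genes. For Dusp1, 1 pair was apart, vehicle of day 60 (4467 to 6469 CPM) above clodronate of day 1 of the later year (2178 to 4010 CPM). The groups of that pair differ in day and library year, and such pairs were not counted over all genes. CPM was scaled within a day, so these orders across days are descriptions.

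The effect of injury without liposomes is described first. At day 1 after injury, 4 of the 7 genes other than the receptor rose and Nr3c1 itself fell. All 8 genes passed the filter on low counts, and 5 were called at an adjusted p under 0.05 by edgeR, beside 33.8% of all genes tested (18.5% higher and 15.3% lower). One of the 5, Zbtb16, held 0 to 9 reads in uninjured libraries and passed that filter through injured libraries, where it was higher. Tsc22d3, Sgk1 and Dusp1, the 3 genes with the highest levels, were not called. In bulk samples, fewer cells of a type and less RNA per cell cannot be told apart.

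The receptor gene Nr3c1 (ENSMUSG00000024431, GRCm38 chromosome 18, 39410545 to 39519421, minus strand) held 139, 125, 141, 151.7 and 122 CPM in injury-only libraries, against 151.8, 221, 188, 219 and 210 CPM in uninjured libraries. Every injured library lay below every uninjured one, the nearest pair by a narrow margin. The means were 135.8 ± 12.1 CPM after injury and 198 ± 28.9 CPM without (SD, n = 5 each), a log2 fold change of −0.54 (SE 0.10, edgeR adjusted p = 0.000132). With the liposome libraries added, all 15 injured libraries of day 1 lay below the lowest uninjured library.

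Fkbp5 (ENSMUSG00000024222, chromosome 17, 28399094 to 28517527, minus strand) held 141, 216, 114, 142 and 147 CPM in injury-only libraries, against 33.7, 51.0, 29.6, 22.5 and 45.2 CPM in uninjured libraries. The groups did not overlap, and the lowest injured library was above the highest uninjured library by more than the range of the uninjured group. The mean was 151.8 ± 38.0 CPM against 36.4 ± 11.6 CPM, a rise of 2.06 on the log2 scale (SE 0.40, edgeR adjusted p = 0.00029).

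Klf9 (ENSMUSG00000033863, chromosome 19, 23141226 to 23168134, plus strand) held 24.8, 17.2, 21.8, 11.3 and 18.1 CPM after injury only, against 4.63, 3.08, 1.21, 3.91 and 2.67 CPM in uninjured libraries. No library of one group reached the other. Its log2 fold change was 2.58 (SE 0.62, edgeR adjusted p = 0.00234).

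Ddit4 (ENSMUSG00000020108, chromosome 10, 59949669 to 59951834, minus strand) held 5.59, 9.55, 6.81, 3.58 and 3.41 CPM after injury only, against 0.262, 0.734, 0.0, 0.816 and 0.774 CPM in uninjured libraries. The groups were apart, on 50 to 138 reads per injured library and 0 to 10 reads per uninjured library. Ddit4 rose by 3.43 on the log2 scale (SE 0.68, edgeR adjusted p = 0.000366).

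Zbtb16 (ENSMUSG00000066687, chromosome 9, 48654297 to 48836222, minus strand) held 1.89, 2.98, 0.801, 0.788 and 0.819 CPM after injury only, against 0.350, 0.0, 0.0, 0.163 and 0.774 CPM in uninjured libraries. The groups nearly touched: 3 injured libraries lay just above the highest uninjured one, and counts were 11 to 43 against 0 to 9 reads. Its log2 fold change of 2.47 (SE 0.94) had an adjusted p of 0.046 by edgeR. The call was lost without any of 6 single libraries (injury only 1 or 2, uninjured 1, 2, 3 or 4), with adjusted p from 0.0647 to 0.122 and log2 fold changes from 2.03 to 2.61, and without uninjured library 5 the log2 fold change was 3.44 (adjusted p = 0.0209). It was also lost when the day was fitted with libraries of the earlier year alone, which keeps every compared library (2.47, adjusted p = 0.056).

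Tsc22d3, Sgk1 and Dusp1 did not pass the test at day 1. Tsc22d3 (ENSMUSG00000031431, chromosome X, 140539528 to 140600659, minus strand) held 811 to 1550 CPM with a mean of 1112 ± 292 CPM after injury only, and 746 to 1115 CPM with a mean of 939 ± 155 CPM in uninjured libraries (log2 fold change 0.24, SE 0.26, edgeR adjusted p = 0.523). Sgk1 (ENSMUSG00000019970, chromosome 10, 21882184 to 21999903, plus strand) averaged 2427 ± 184 CPM after injury only and 2455 ± 419 CPM in uninjured libraries (log2 fold change −0.02, SE 0.13, edgeR adjusted p = 0.939). Dusp1 (ENSMUSG00000024190, chromosome 17, 26505590 to 26562128, minus strand) held 10910, 12260, 9905, 8656 and 10060 CPM after injury only, against 14060, 11980, 14650, 10670 and 11850 CPM in uninjured libraries. Of the 5 injured libraries 3 lay under the uninjured range, and the groups overlapped. Its log2 fold change was −0.29 (SE 0.15, edgeR adjusted p = 0.136). Dusp1 was called when the compared groups were fitted alone (−0.30, adjusted p = 0.042) and with a block on the library number (−0.30, adjusted p = 0.0334). Of 12360 genes tested, these fits called 5169 and 5210. Annotated genes overlap the gene models of Dusp1 (among them Ergic1), Fkbp5 and Klf9, and the sources used here do not say whether counting used strand, so reads of such partners may be shared.

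Markers of other cells moved with these changes at day 1. Summed microglial markers held 22420 to 25750 CPM after injury only and 42200 to 48060 CPM in uninjured libraries, and all 10 markers fell. Of 9 monocyte genes tested 8 rose, with sums of 57.4 to 264 CPM against 31.1 to 55.8 CPM. Of 8 neutrophil genes listed, 4 held enough reads for the test and these 4 rose. Neutrophil sums were 3.67 to 13.4 CPM against 0.326 to 1.05 CPM, near the floor in uninjured libraries. The neutrophil genes Ly6g and Camp were at 0 in all injury-only libraries. Summed CPM of 22 immediate early and dissociation genes, which also respond to tissue handling, was 37310 to 48370 after injury only and 75920 to 90080 in uninjured libraries. The part of these differences in the results for the 8 genes was not tested.

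**Figure D2:**
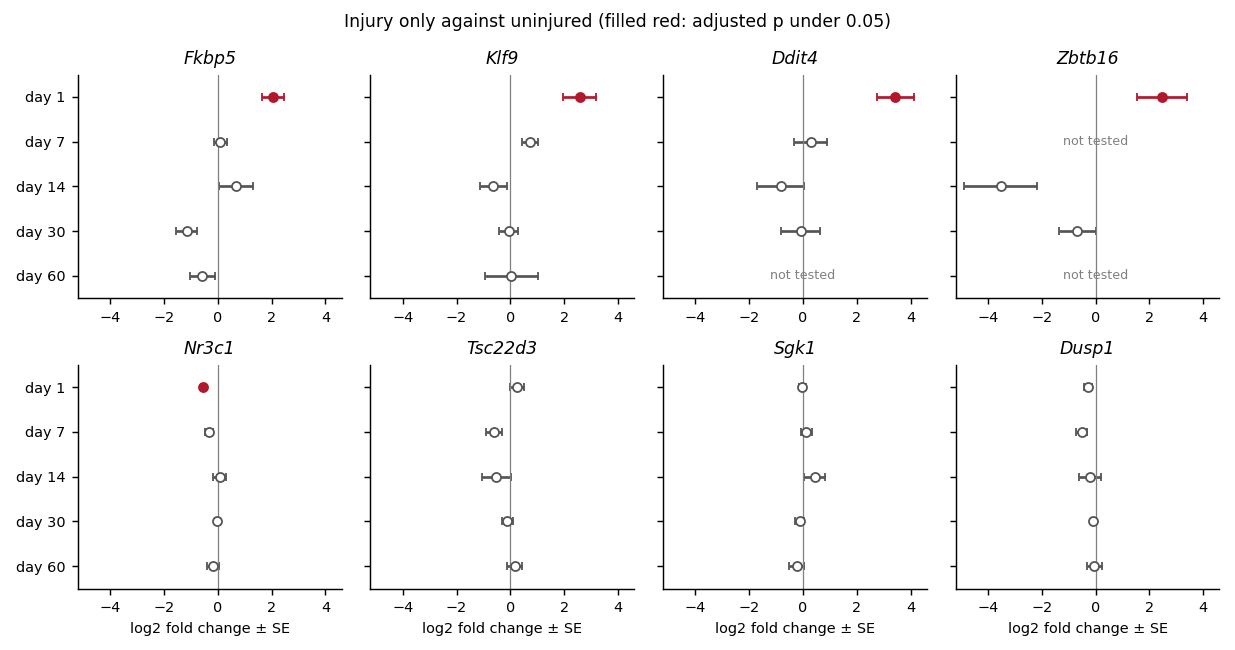
Log2 fold change of injury only over uninjured (x axis) with its standard error, for each gene by day after injury (rows from day 1 at the top). Red filled points have an adjusted p under 0.05 by edgeR. Red points stand at day 1 alone, for Fkbp5 (2.06), Klf9 (2.58), Ddit4 (3.43), Zbtb16 (2.47) and Nr3c1 (−0.54).

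Later after injury, none of the genes was called. At day 7 edgeR called 0 of the 7 genes tested, beside 7.68% of all genes (6.14% higher and 1.54% lower). Unadjusted p was under 0.05 for 4 of the 7 and for 21.4% of all genes, and DESeq2 called 0 of the 7 and 1635 of all genes. Zbtb16 was not tested at days 7 and 60 because of its low counts, nor Ddit4 at day 60. Fkbp5 held 16.1 to 42.9 CPM after injury only and 17.6 to 32.4 CPM in uninjured libraries of day 7, so its ranges overlapped (log2 fold change 0.10, SE 0.24, edgeR adjusted p = 0.868). Dusp1 held 5605, 7472, 10150, 7970 and 8497 CPM after injury only, against 13630, 10510, 10830 and 10470 CPM in uninjured libraries of day 7. The groups did not overlap, and all 14 injured libraries of that day, liposome libraries included, lay below the lowest uninjured library. Even so the log2 fold change of −0.52 (SE 0.20) had an adjusted p of 0.13 by edgeR. Klf9 averaged 5.20 ± 1.06 CPM against 3.15 ± 0.864 CPM (log2 fold change 0.72, adjusted p = 0.151), and 13 of 14 injured libraries were above the highest uninjured library. Nr3c1 averaged 164.9 ± 28.0 CPM after injury only and 208 ± 22.4 CPM in uninjured libraries of day 7 (log2 fold change −0.33, adjusted p = 0.196).

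At day 14 edgeR called 0 of the 8 genes and 0.0% of all genes; an unadjusted p under 0.05 was reached by 1 of the 8 and 1963 of all genes, and DESeq2 called 0 of the 8 and 97 of all genes. Zbtb16 held 0.281, 0.0652 and 0.180 CPM after injury only, against 0.299, 0.536 and 5.55 CPM in uninjured libraries. The high value is that of uninjured library 3, the one with the blood cell markers. The log2 fold change was −3.53 (SE 1.36, edgeR adjusted p = 0.324) with that library and −1.51 (adjusted p = 0.527) without uninjured libraries 1 and 3, a choice made after the data were seen. That setting leaves 1 uninjured library (0.536 CPM of Zbtb16), so its spread was taken from the other groups of the day, and the lone library is assumed to vary as they do. Against the lone library, the log2 fold change of Ddit4 was 0.95 (−0.83 with all libraries) and that of Sgk1 −0.13 (0.43 with all). These changed sign, and those of the other genes kept theirs. With this 1 library, edgeR called 2529 of 16297 genes at day 14 (median log2 fold change over all genes 0.14) but 0 of the 8, and Fkbp5 then had a log2 fold change of 1.67 (SE 0.84, adjusted p = 0.182) on the same assumption, against 0.67 (SE 0.63, adjusted p = 0.627) with all libraries.

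Fkbp5 stood on the other side at day 30. It held 16.1, 31.6, 37.2 and 40.1 CPM after injury only, against 73.1, 95.9, 46.4 and 63.4 CPM in uninjured libraries. All injured libraries were below all uninjured ones, but the log2 fold change of −1.16 (SE 0.38) had an unadjusted p of 0.00653 and an adjusted p of 0.907 by edgeR. Of the 8 genes 0 were called at day 30, as were 0.0% of all genes; an unadjusted p under 0.05 was reached by 1 of the 8 and 639 of all genes, and DESeq2 called 0. At day 60 edgeR called 0 of 6 genes tested, beside 0.0416% of all genes. For 0 of the 6 and for 3.47% of all genes the unadjusted p was under 0.05, and DESeq2 called 0 of the 6 and 19 of all genes. The fold changes of Fkbp5 (−0.57) and Dusp1 (−0.05) at day 60 came from 3 libraries a group. Depth differed between treatments on that day, at 2930843 to 3739798 gene counts in uninjured and 8431455 to 12306417 in injury-only libraries. Vehicle libraries of day 60 held 1109856 to 5271285 and clodronate libraries 2150009 to 9694385 gene counts.

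The effect of injury differed between days for 4 of the 8 genes, beside 13.3% of all genes. In 1 fit of all libraries the adjusted p of the difference by edgeR was 0.000614 for Fkbp5, 0.00999 for Klf9, 0.0329 for Ddit4 and 0.0458 for Zbtb16. For Nr3c1 it was 0.181, for Tsc22d3 0.45, for Sgk1 0.68 and for Dusp1 0.72. Without day 1, none of these 4 differences was called, with adjusted p of 0.302, 0.643, 0.905 and 0.489 for Fkbp5, Klf9, Ddit4 and Zbtb16. For Zbtb16 the call was also lost without day 14 (adjusted p = 0.226) or day 30 (0.0528) and with the earlier year libraries alone at day 1 (0.0568). Shares of all genes called are not given for these reduced fits, so the lost calls cannot be set beside them.

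Within day 1 the injured libraries varied widely. Liposome-treated libraries spread over a broader range than injury-only libraries in the 4 genes that rose. Clodronate libraries of the later year held 146, 232 and 89.6 CPM of Fkbp5 and those of the earlier year held 77.2, 215 and 326 CPM. Vehicle libraries held 70.2 and 31.2 CPM in the later year and 33.5 and 179 CPM in the earlier year. Vehicle library 2 of the earlier year was thus within the injury-only range, while vehicle library 1 of the earlier year was within the uninjured range.

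The other genes that rose followed the same libraries in part. Klf9 held 3.19, 16.8 and 3.15 CPM in clodronate libraries of the later year and 2.84, 12.8 and 41.2 CPM in those of the earlier year, against 3.00 and 4.12 CPM in vehicle libraries of the later year and 0.908 and 13.02 CPM in those of the earlier year. Ddit4 held 0.798, 4.17 and 2.14 CPM in clodronate libraries of the later year and 5.55, 7.49 and 15.01 CPM in those of the earlier year, against 0.918 and 0.0 CPM in vehicle libraries of the later year and 0.681 and 6.47 CPM in those of the earlier year. Among libraries of the earlier year, clodronate library 4 held the highest values of all 84 libraries for Fkbp5, Klf9, Ddit4 and Zbtb16, and vehicle library 2 exceeded vehicle library 1 in all 4 genes. Clodronate library 4 had 24830 CPM of microglial markers, the lowest of its group, and 17.4 CPM of neutrophil markers, the highest. In the vehicle group of the earlier year, library 2 had 25710 CPM of microglial and 10.3 CPM of neutrophil markers, and library 1 had 34600 and 2.95 CPM. The part of these markers in the spread was not tested. Of the 15 injured libraries of day 1, 13 lay above the highest uninjured library for Fkbp5, 12 for Ddit4, 10 for Zbtb16 and 9 for Klf9.

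**Figure D3:**
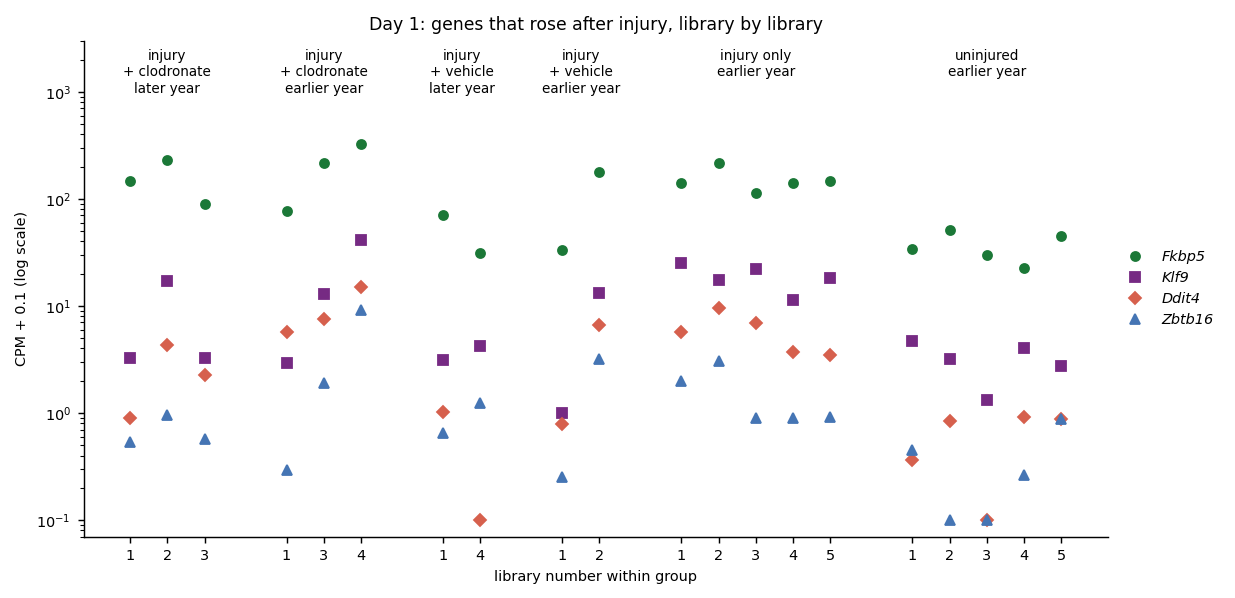
CPM + 0.1 on a log axis (y) of Fkbp5, Klf9, Ddit4 and Zbtb16 in each day 1 library (x axis, by library number within the group). Each marker shape is a gene. Clodronate library 4 of the earlier year is highest for all 4 genes, at 326, 41.2, 15.01 and 9.10 CPM, and the 5 uninjured libraries lie low, with Fkbp5 at 22.5 to 51.0 CPM.

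Clodronate was compared with vehicle to describe the treatment meant to deplete peripheral monocytes. At day 1 edgeR called 0 of the 8 genes, beside 0.186% of all genes (0.152% higher and 0.0344% lower). Unadjusted p was under 0.05 for 3 of the 8 and for 8.35% of all genes, and DESeq2 called 0 of the 8 and 112 of all genes. Fkbp5 had the smallest p: it averaged 181 ± 95.2 CPM in clodronate libraries (n = 6) and 78.5 ± 69.3 CPM in vehicle libraries (n = 4), a log2 fold change of 1.28 (SE 0.40, edgeR adjusted p = 0.268). The ranges overlapped. Within the later year the log2 fold change was 1.61 (SE 0.44) and the groups did not overlap, while within the earlier year it was 0.95 (SE 0.53) and they did, with adjusted p of 0.999 and 0.998. With a block on the library number Fkbp5 was called (1.14, edgeR adjusted p = 0.00143), beside 91 of 13747 genes tested (27 of 14516 in the main fit). That fit kept only library 1 of each year in each treatment, the libraries whose number and year occurred in both. Fkbp5 was also called without vehicle library 2 of the earlier year (1.97, edgeR adjusted p = 0.0498). Ddit4 had a log2 fold change of 1.73 (SE 0.64, adjusted p = 0.399) and Klf9 of 1.30 (SE 0.62, adjusted p = 0.59). Those of Tsc22d3 (0.47), Zbtb16 (0.39), Dusp1 (0.27), Sgk1 (0.16) and Nr3c1 (−0.11) had adjusted p from 0.68 to 0.96 by edgeR.

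At later days no gene of the 8 was called between clodronate and vehicle. At day 7, 0 of 7 genes were called by edgeR, beside 0.574% of all genes (0.455% higher and 0.119% lower). For 0 of the 7 and for 13.1% of all genes the unadjusted p was under 0.05, and DESeq2 called 0 of the 7 and 414 of all genes. The largest fold changes there were those of Ddit4 (−0.57) and Tsc22d3 (−0.54, 443 ± 164 CPM against 643 ± 187 CPM). At day 14, 0 of 8 and 0.0% of all genes were called; an unadjusted p under 0.05 was reached by 2 of the 8 and 785 of all genes, and DESeq2 called 0 of the 8 and 17 of all genes.

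Tsc22d3 held 791, 121.6, 320.3, 176 and 283 CPM in clodronate libraries of day 14, against 310.4, 529, 535, 622 and 732 CPM in vehicle libraries. The libraries numbered 1 went against the rest: clodronate library 1 was the highest of all 10 and vehicle library 1 the lowest vehicle library. These are the libraries whose Spp1 also stood apart. Tsc22d3 had a log2 fold change of −0.69 (SE 0.41, edgeR adjusted p = 0.98) with them and −1.43 (SE 0.31, adjusted p = 0.0291) without them, also chosen after the data were seen. Clodronate libraries 2 to 5 held 562 to 1503 CPM of monocyte markers, against 84.8 to 131 CPM in vehicle libraries 2 to 5. Their microglial markers summed to 25590 to 29870 CPM, against 32910 to 34970 CPM in those vehicle libraries. The libraries numbered 1 went the other way. Clodronate library 1 held 44.06 CPM of monocyte and 40430 CPM of microglial markers, and vehicle library 1 held 612.7 and 28790 CPM. The part of these differences in the result for Tsc22d3 was not tested. Klf9 held 2.03, 1.30, 1.74, 2.10 and 3.07 CPM in clodronate libraries of day 14, against 2.46, 3.21, 3.90, 5.84 and 7.40 CPM in vehicle libraries. Overlap was small, and the log2 fold change was −1.15 (SE 0.39, adjusted p = 0.827) with all libraries and −1.30 (adjusted p = 0.153) without those numbered 1.

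At day 30, 0 of 8 and 0.0% of all genes were called between clodronate and vehicle; an unadjusted p under 0.05 was reached by 2 of the 8 and 1199 of all genes, and DESeq2 called 0 of the 8 and 33 of all genes. Nr3c1 had a log2 fold change of −0.20 (adjusted p = 0.556) and Dusp1 of 0.18 (adjusted p = 0.558). At day 60, 0 of 6 and 0.0% of all genes were called; an unadjusted p under 0.05 was reached by 0 of the 6 and 789 of all genes, and DESeq2 called 0 of the 6 and 17 of all genes. Dusp1 held 9354, 6526, 7745 and 8572 CPM in clodronate libraries of day 60, against 5851, 5959, 4467 and 6469 CPM in vehicle libraries. The groups were apart by a small gap, with a log2 fold change of 0.50 (SE 0.25, edgeR adjusted p = 0.778). Whether the clodronate effect differed between days was tested too: edgeR called 0 of the 8 genes, beside 0.27% of all genes. Unadjusted p was under 0.05 for 2 of the 8 and for 12.2% of all genes, and the smallest adjusted p was that of Klf9 (0.3).

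**Figure D4:**
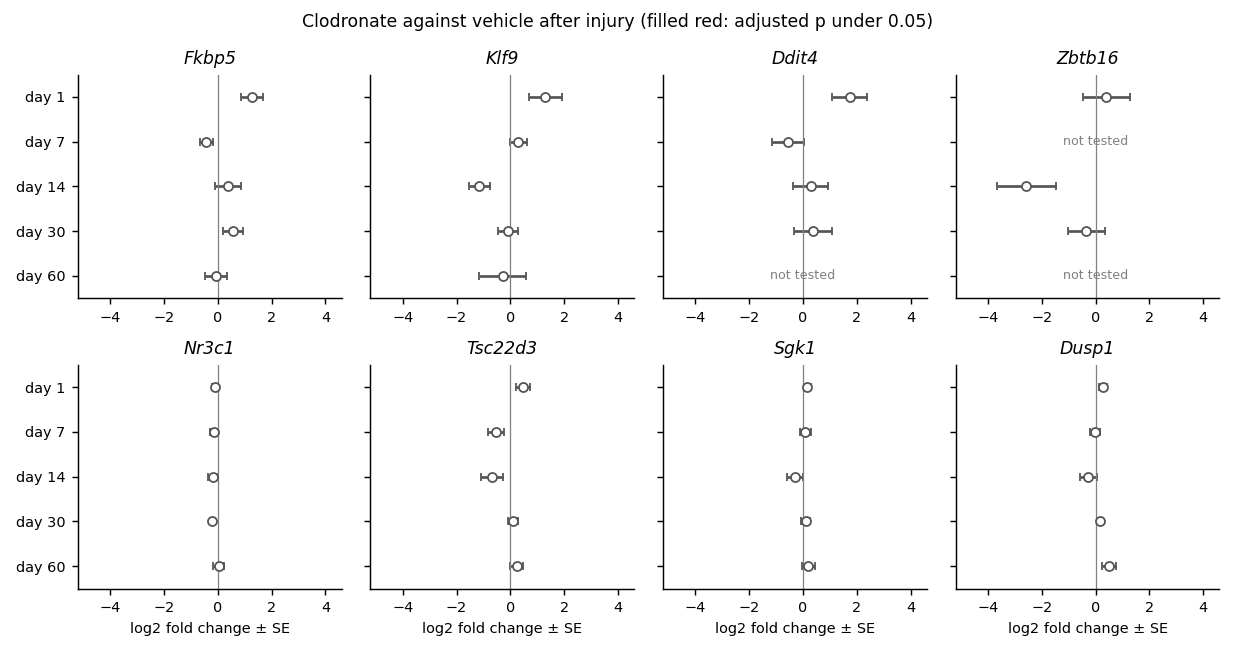
Log2 fold change of clodronate over vehicle (x axis) with its standard error, for each gene by day after injury (rows from day 1 at the top). No point is red, since none had an adjusted p under 0.05 by edgeR. Fkbp5 was at 1.28 on day 1 and at −0.42 on day 7.

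Vehicle was compared with injury only to describe the liposomes themselves. At day 1 edgeR called 0 of the 8 genes, beside 0.875% of all genes (0.207% higher and 0.668% lower). For 1 of the 8 and for 14.2% of all genes the unadjusted p was under 0.05, and DESeq2 called 0 of the 8 and 409 of all genes. Tsc22d3 held 430.5 and 131.2 CPM in vehicle libraries of the later year and 284 and 728 CPM in those of the earlier year, against 1250, 1550, 992, 956 and 811 CPM after injury only. All vehicle libraries lay below all injury-only libraries. The log2 fold change was −0.91 (SE 0.32, edgeR adjusted p = 0.195) over both years and −1.14 (adjusted p = 0.0819) within the earlier year. Without vehicle library 1 of the later year it was −1.22 and passed the test (adjusted p = 0.0176). Sgk1 did not overlap either, at 1525 ± 502 CPM against 2427 ± 184 CPM, and its lower vehicle libraries were those of the later year (log2 fold change −0.23 with year in the fit, SE 0.15, adjusted p = 0.526). Klf9 (−1.33, adjusted p = 0.404), Ddit4 (−0.91, adjusted p = 0.582) and Fkbp5 (−0.70, adjusted p = 0.497) were not called.

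At day 7, 0 of 7 genes were called between vehicle and injury only, beside 0.336% of all genes (0.196% higher and 0.14% lower). Unadjusted p was under 0.05 for 2 of the 7 and for 12.1% of all genes, and DESeq2 called 0 of the 7 and 250 of all genes. Those 2 were Tsc22d3 (643 ± 187 CPM against 404 ± 132 CPM, log2 fold change 0.67, adjusted p = 0.358) and Fkbp5 (43.8 ± 11.3 CPM against 28.5 ± 9.54 CPM, 0.56, adjusted p = 0.368). At day 30, 0 of 8 and 0.0% of all genes were called by edgeR; an unadjusted p under 0.05 was reached by 1 of the 8 and 1212 of all genes, and DESeq2 called 0 of the 8 and 35 of all genes. At day 60, 0 of 6 were called by edgeR, beside 0.00831% of all genes. For 0 of the 6 and for 5.78% of all genes the unadjusted p was under 0.05, and DESeq2 called 0 of the 6 and 29 of all genes.

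Dusp1, Sgk1, Tsc22d3 and Ddit4 differed between library years at day 1. Among liposome-treated libraries of that day, the later year was compared with the earlier year with treatment in the fit, a comparison added after the data were seen. Of the 8 genes 4 were called by edgeR, all lower in the later year, beside 34.5% of all genes (17.5% higher and 17.0% lower). Dusp1 held 2178, 4010 and 2659 CPM in clodronate and 2859 and 2255 CPM in vehicle libraries of the later year, against 9559, 9091 and 11360 CPM in clodronate and 6623 and 9290 CPM in vehicle libraries of the earlier year. The years did not overlap. Dusp1 was lower in the later year by a log2 fold change of −1.71 (SE 0.15, edgeR adjusted p = 1.67e-07).

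Sgk1 averaged 1106 ± 189 CPM in the later year and 2225 ± 265 CPM in the earlier year (n = 5 each), again without overlap (log2 fold change −1.0, SE 0.13, edgeR adjusted p = 5.15e-06). Tsc22d3 averaged 296 ± 112.3 CPM in the later year and 745 ± 301 CPM in the earlier year, with overlap (−1.28, SE 0.27, adjusted p = 0.000934). Ddit4 averaged 1.60 ± 1.62 CPM in the later year and 7.04 ± 5.16 CPM in the earlier year, also with overlap (−2.24, SE 0.61, adjusted p = 0.00656). Fkbp5 (−0.66, adjusted p = 0.187), Klf9 (−1.17, adjusted p = 0.128), Zbtb16 (−1.97, adjusted p = 0.075) and Nr3c1 (−0.16, adjusted p = 0.226) were not called. Klf9 passed the test without clodronate library 2 of the later year (−1.84, adjusted p = 0.0266), or without clodronate library 1 or vehicle library 1 of the earlier year (−1.46 each, adjusted p = 0.0446 and 0.0399). Zbtb16 passed it without clodronate library 1 (−2.24, adjusted p = 0.0358) or vehicle library 1 (−2.40, adjusted p = 0.026) of the earlier year. DESeq2 called 5 of the 8 genes between the years, Zbtb16 among them (−1.96, DESeq2 adjusted p = 0.0454), beside 5439 of 14516 genes tested. Of 22 immediate early and dissociation genes 14 fell and 2 rose in the later year, with summed levels of 18280 to 28680 CPM against 40570 to 47870 CPM. Fos held 2970 ± 321 CPM in the later year and 8020 ± 590 CPM in the earlier year, while Nr4a1 was higher in the later year by 1.45 on the log2 scale. Of 15 clock genes 8 rose and 2 fell, among them Nr1d1, which represses transcription in the clock, at 16.5 ± 13.5 CPM in the later year and 4.08 ± 0.308 CPM in the earlier year. The sources used here do not give the time of day of collection, and the part of these genes in the year difference of the 8 was not tested.

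**Figure D5:**
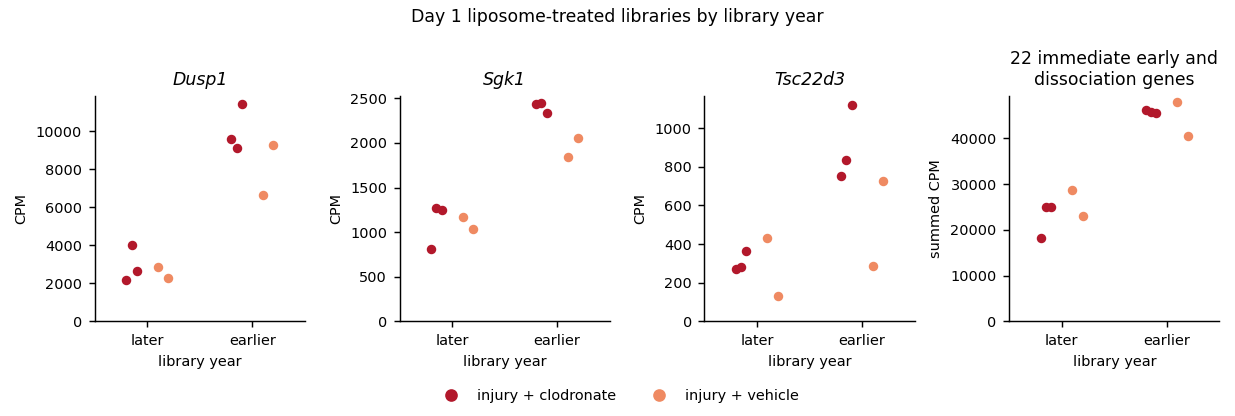
CPM of Dusp1, Sgk1 and Tsc22d3 and summed CPM of 22 immediate early and dissociation genes (y axes, linear, from 0) in liposome-treated libraries of day 1, by library year (x axis, the later year left of the earlier year). Points are libraries, coloured by treatment. Dusp1 lay at 2178 to 4010 CPM in the later year and at 6623 to 11360 CPM in the earlier year.

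Other genes of the pathway moved in both directions at day 1 after injury. Of 31 further induced targets tested, 11 rose and 6 fell, with a median log2 fold change of 0.40 against 0.0 over all genes, of which 18.5% were called higher and 15.3% lower. Lcn2, an iron-binding acute phase protein, was at 43.0 ± 15.4 CPM after injury only and 0.48 ± 0.536 CPM in uninjured libraries (log2 fold change 6.48, edgeR adjusted p = 1.46e-08). The repressor Nfil3 rose to 297 ± 34.8 CPM after injury, against 47.0 ± 7.75 CPM without, and the metallothionein Mt2 to 25.1 ± 1.48 CPM, against 3.44 ± 0.895 CPM. Zfp36, which destabilises cytokine mRNA, fell by 0.75 on the log2 scale, and Txnip, an inhibitor of thioredoxin, fell by 0.74.

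Of 14 genes that glucocorticoids repress, 11 rose and 1 fell at day 1, with a median of 1.42. Il12b, a subunit of interleukin-12, stood at 43.8 ± 12.8 CPM against 1.24 ± 0.315 CPM (log2 fold change 5.13, edgeR adjusted p = 5.82e-12), and Tnf at 902 ± 250 CPM against 270.0 ± 51.6 CPM. Icam1, an adhesion molecule, fell by 0.79 on the log2 scale. Of 16 genes of the receptor machinery, 3 rose and 4 fell, with a median of 0.06. The chaperone Hsp90aa1 held 263 ± 39.0 CPM after injury only and 683 ± 91.6 CPM in uninjured libraries (−1.38, adjusted p = 7.27e-08), the mineralocorticoid receptor gene Nr3c2 fell by 0.86, and Ptges3, or p23, rose by 0.28.

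Hypoxia and ATF4 genes, which share inducers with Ddit4, rose in 11 and fell in 2 of 17 cases (median 1.07). Among them, Asns, asparagine synthetase, was at 27.0 ± 8.80 CPM against 4.15 ± 1.24 CPM, and Ddit3, or CHOP, fell by 1.05. Immediate early and dissociation genes, which share inducers with Dusp1, fell in 17 of 22 cases (median −0.89), Fos to 7940 ± 1190 CPM after injury, against 15600 ± 2090 CPM without. Of 15 clock genes 1 rose and 6 fell (median −0.54), the fall of Nr1d2 being 1.65 on the log2 scale.

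Fewer genes of these lists were called at day 7 after injury, when 6.14% of all genes were called higher and 1.54% lower. Of 30 induced targets 2 rose, Anxa1, or annexin A1 (8.92 ± 3.17 CPM against 1.21 ± 0.686 CPM, log2 fold change 2.87, edgeR adjusted p = 0.00263), and Pdk4, a pyruvate dehydrogenase kinase (2.50), and 3 fell. Of 16 receptor machinery genes, Abcb1a, a drug exporter that also carries glucocorticoids, rose (1.60), and Hsp90ab1, Hspa8, Hsp90aa1 and the co-chaperone Fkbp4 fell, Fkbp4 to 100 ± 9.53 CPM against 153 ± 18.1 CPM. Of 15 repressed targets 6 rose and 0 fell. At days 14, 30 and 60 edgeR called 0 genes of the induced, repressed and machinery lists between injury only and uninjured, with 7, 4 and 1 of the induced, 1, 2 and 1 of the repressed and 1, 3 and 0 of the machinery genes at an unadjusted p under 0.05. Over all genes tested, 13.7%, 4.54% and 3.47% had such a p on those days.

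Between liposome groups few genes of these lists were called. At day 1 edgeR called 0 genes of the induced, repressed and machinery lists between clodronate and vehicle, with 4 of 31, 3 of 14 and 4 of 16 at an unadjusted p under 0.05, beside 8.35% of all genes. Between vehicle and injury only at day 1, where 0.668% of all genes were called lower, 3 of 31 induced targets fell: the cell cycle inhibitor Cdkn1a (−1.16), Rgcc (−2.20) and the clock gene Per1, at 30.9 ± 10.1 CPM against 61.0 ± 11.6 CPM (−1.05, edgeR adjusted p = 0.043). In the same comparison 4 of 14 repressed targets fell, Il12b by 2.11, Csf1 by 1.67, Il1b by 1.57 and Ptgs2 by 1.38 on the log2 scale. At day 7 the hypoxia genes Slc2a1, a glucose transporter (1.23), and Adm, adrenomedullin (1.97), 2 of 17 in that list, rose in clodronate against vehicle libraries, beside 0.455% of all genes called higher.

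Likeness of pattern was measured by Pearson's r of log2 CPM among 8227 protein-coding genes, as a description over libraries that share days and scaling. Over deviations of the 84 libraries from their group means, Dusp1 was most like Junb (r = 0.875), Fos (0.857) and Ppp1r15a (0.83). Sgk1 was most like Lpcat3 (0.833), Tsc22d3 most like Klf6 (0.74), Nr3c1 most like Acap2 (0.779) and Fkbp5 most like Ppp1r21 (0.708). Values were lower for the genes with few reads, 0.604 for Klf9 with Aste1, 0.495 for Zbtb16 with Cry1 and 0.484 for Ddit4 with Cebpb.

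Over the 22 group means, Fkbp5 and Ddit4 were each most like B4galt1, a galactosyltransferase (r = 0.894 and 0.853), and Tsc22d3 was again most like Klf6 (0.87). Among the 28 pairs of the 8 genes, the highest r over group means were those of Tsc22d3 with Dusp1 (0.805), Fkbp5 with Ddit4 (0.764) and Ddit4 with Klf9 (0.761). Within groups the highest were Dusp1 with Sgk1 (0.712) and Dusp1 with Tsc22d3 (0.675), whereas Fkbp5 with Klf9 had 0.186.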

How the data were processed

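Bulk RNA sequencing counts of 84 libraries of sorted microglia were used. Per the labels' protocols, the PicoPure kit gave the RNA, amplification of cDNA took 11 PCR cycles and the library kit was Nextera XT. Molecular identifiers are not named. Per the submitters' processing notes, STAR was the aligner and mm10 (GRCm38) the build. HTSeq did the counting, per the file headers (run summary). The authors deposited raw counts per Ensembl gene, not normalised, of which 5 summary lines per file that name no gene were left out here. The authors also deposited a run summary of percent values per library, used for the percent of uniquely aligned reads; 1 of its 85 lines matched no library. The sources used here do not give versions, settings or use of strand. GENCODE M21 (GRCm38) gave symbols to 49326 identifiers, coordinates and exon lengths.

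Counts were fitted per day, all 4 treatments together and library year as a covariate at day 1, using R 4.3.3 and its package edgeR 4.0.16 (TMM, filterByExpr with minimum count 10 and minimum total 15, quasi-likelihood F test, Benjamini-Hochberg over all genes tested). Genes were called at an adjusted p under 0.05, and an adjusted p-value is edgeR's where DESeq2 is not named. Standard errors are |log2 fold change| over the root of the F statistic. In all, 14 comparisons within days were made, 2 tests of an effect by day over all libraries, and 1 of library year. Log2 CPM adds a prior count of 2. Alternatives were DESeq2 1.42.0 (size factors, Wald test), no filter, fits of the compared groups only, blocking on library number, fits of 1 year, and leaving out days or single libraries. The block kept only libraries whose number and year occurred in both compared groups. On data simulated for injury only against uninjured, 93% (day 1), 89% (day 7) and 48% (day 60) of genes changed by 1 on the log2 scale were recovered, and 100% of those changed by 2. The simulated counts had 1 common spread for all genes, no outlying libraries and no year effect. Only genes of higher level were changed, so recovery of genes with few reads, such as Ddit4 and Zbtb16, was not measured. Libraries of a group differed by a chi-square of at least 6.149 per degree of freedom, so none was taken for a copy. The main fits did not pair libraries of equal number, since no source says that the numbers pair them. Such libraries correlated above 0.1 in every pair only at day 30 between vehicle and injury only (0.118 to 0.251, 4 pairs).

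The 8 genes and the gene lists were chosen with earlier results of these data known. Genes of a list were eligible to be named when called and among the 4 smallest p of their direction, and for likeness the 3 genes with the highest r. Spp1 was looked at by library only where libraries stood apart. Figures were drawn with matplotlib 3.10.9.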

Additional observations from a re-analysis of the deposited data

Results flagged for a closer look

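Single libraries lay far from the rest of their group in 10 of 112 groups tested over the 8 genes. Chance flags about 1 in 20 groups where values are normally distributed, a rate that need not hold for counts near 0. At day 14, clodronate library 5 held 125 CPM of Fkbp5, against 23.4 to 40.6 in the others, and clodronate library 3 held 3500 CPM of Sgk1, against 2200 to 2260. Vehicle library 1 of day 14, whose Spp1 also stood apart, held 58.8 CPM of Fkbp5, against 31.7 to 38.2 in the other vehicle libraries, and 99.4 CPM of Nr3c1, against 151 to 162. At day 7, vehicle library 4, the shallowest of that day, held 1590 CPM of Sgk1, against 3290 to 3550, and uninjured library 1 held 13600 CPM of Dusp1, against 10500 to 10800. Clodronate library 2 of day 30 held 7.89 CPM of Klf9, against 5.29 to 5.71. At day 60, vehicle library 4 held 28.1 CPM of Fkbp5, against 11.8 to 13.2, and 0.75 CPM of Zbtb16, against 0.0 in each of the others. The Zbtb16 value rests on 4 reads, and any value above 0.0 would have been flagged there. Clodronate library 2 of day 60 held 0.0 CPM of Ddit4, against 1.01 to 1.11. It had 2150009 gene counts, against 6558102 to 9694385 in the other clodronate libraries of that day.

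The effect of injury differed between days by a test of the difference for Fkbp5 (edgeR adjusted p = 0.000614), Klf9 (0.00999), Ddit4 (0.0329) and Zbtb16 (0.0458).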

How the results depend on the processing

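Of 1669 values of single genes under alternatives, 1632 stayed on their side of the threshold, 14 lost and 23 gained a call, and 0 called values changed sign. Fkbp5, Ddit4, Klf9 and Nr3c1 were called at day 1 after injury under all 16 alternatives run, with Fkbp5 between 1.9 and 2.21 on the log2 scale, and Zbtb16 under 9. Leaving out single libraries of day 1 gave 4 to 5 of the 8 genes called after injury and 4 to 6 for library year. It gave 0 to 1 for clodronate against vehicle and 0 to 1 for vehicle against injury only. With every library, 33.8%, 34.5%, 0.186% and 0.875% of all genes were called in these comparisons, in that order. Without the filter on low counts, 4 of the 8 genes were called for clodronate against vehicle and 3 for vehicle against injury only at day 1. For library year 7 were called, and 1 for clodronate against vehicle at day 60 (Dusp1, 0.55, edgeR adjusted p = 0.0131). Calls over all genes without the filter numbered 382 (27 with it), 840 (127), 4972 (5012) and 77 (0) in these comparisons, in that order. The cause was not tested. With a block on the library number, 1 of the 8 genes was called for clodronate against vehicle at day 1 (Fkbp5), from library 1 of each year. That fit called 91 of 13747 genes tested. Beside this, the block changed the call of Dusp1 at day 1 after injury and no other call of the 8 genes, and no source says that the numbers pair these libraries. Without the libraries numbered 1, 1 gene was called for clodronate against vehicle at day 14 (Tsc22d3), with 309 of all genes. Without day 1, the injury effect differed by day for 0 of the 8 genes, and the share of all genes called in that fit is not given. Ddit4 and Zbtb16 are limited by depth, with medians of 12.5 and 4.5 reads per library.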
